A study of Mus musculus with 72 samples.

Results

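The sites described here are the differential H3K27me1 and H3K27me2 regions that lie at transcription starts. They are the autosomal sites of 5 deposited comparison tables whose mm10 coordinates overlap a window of 1000 bp on either side of the gene start of a protein-coding gene in the GENCODE mouse annotation, release M21. This rule, which uses position and no measured value, gave 480 sites of 35229 autosomal sites (36113 on all chromosomes), at the starts of 480 of 20807 autosomal protein-coding genes. The sites came from the nucleus accumbens, the part of the ventral striatum best known for reward, of adult male wildtype mice. They were mapped by CUT&RUN, where a nuclease bound to an antibody cuts out the DNA next to a chromatin mark. In the defeat cohort, mice that went through chronic social defeat stress and were classed as susceptible or resilient were each compared with control mice, with 4 libraries per mark and group. The susceptible and the resilient table of a mark use the same 4 control libraries. In the early life stress (ELS) cohort, mice given ELS and then subthreshold defeat were compared for H3K27me1 with standard-reared control mice, with 3 libraries per group. Those groups differ in rearing and in defeat at once, so the effects of rearing and of defeat cannot be told apart in that table. Whether each library is a mouse of its own is not in the labels. A p-value computed across libraries (limma) thus reflects the spread of these libraries, which may be technical. The authors' deposited p-values for the tables of the defeat cohort come from a G-test, which does not measure that spread. Directions below are the stressed group's mean against the control group's mean, and a site counts as called when the authors deposited it, which means that a 1000-bp window passed a p limit of 0.0001.

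Lysine 27 of histone H3 can be monomethylated, dimethylated or trimethylated, all by Polycomb repressive complex 2 with its catalytic subunit EZH1 or EZH2. The trimethyl form marks silenced developmental promoters, the dimethyl form covers broad stretches of untranscribed chromatin, and the monomethyl form is known from the bodies of transcribed genes. Promoters of housekeeping genes are usually rich in CpG dinucleotides, whereas promoters of many genes restricted to one tissue are poor in CpG and some carry a TATA box. 
To show what kind of start the sites fell on, the promoters of 10 genes named below are printed with every CpG in capitals. Each runs from 250 bases before to 50 bases after the RefSeq start (GRCm38.p6, the same coordinates as mm10), 5′ to 3′ on the gene's strand. Hibch (chr1:52844788-52845087, plus strand) and Alkbh3 (chr2:94010681-94010980, minus strand) had higher H3K27me1 in a stressed group over the whole printed promoter:
Hibch: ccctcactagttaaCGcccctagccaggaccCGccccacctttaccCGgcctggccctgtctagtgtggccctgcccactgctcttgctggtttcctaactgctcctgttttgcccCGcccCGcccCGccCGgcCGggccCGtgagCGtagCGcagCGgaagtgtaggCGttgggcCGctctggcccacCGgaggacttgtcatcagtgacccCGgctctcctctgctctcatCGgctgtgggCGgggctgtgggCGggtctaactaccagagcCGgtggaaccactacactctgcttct
Alkbh3: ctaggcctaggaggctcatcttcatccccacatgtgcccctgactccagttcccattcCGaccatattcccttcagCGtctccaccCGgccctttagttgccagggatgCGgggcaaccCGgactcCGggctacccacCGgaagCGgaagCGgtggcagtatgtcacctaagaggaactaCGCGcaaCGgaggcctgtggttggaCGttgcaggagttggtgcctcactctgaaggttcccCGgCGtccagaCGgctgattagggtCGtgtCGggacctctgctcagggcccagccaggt

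The promoters of Pspn (chr17:57000056-57000355, minus strand) and Anapc4 (chr5:52833885-52834184, plus strand) lay at sites of lower H3K27me1, and that of Prss53 (chr7:127890921-127891220, minus strand) in a site that was higher in resilient mice, next to one that was lower in susceptible mice:
Pspn: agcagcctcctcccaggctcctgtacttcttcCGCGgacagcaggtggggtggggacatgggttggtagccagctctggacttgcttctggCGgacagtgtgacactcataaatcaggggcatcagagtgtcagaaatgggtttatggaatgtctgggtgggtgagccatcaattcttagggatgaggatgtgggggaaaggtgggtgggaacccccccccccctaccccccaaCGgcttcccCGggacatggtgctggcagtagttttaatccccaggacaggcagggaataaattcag
Anapc4: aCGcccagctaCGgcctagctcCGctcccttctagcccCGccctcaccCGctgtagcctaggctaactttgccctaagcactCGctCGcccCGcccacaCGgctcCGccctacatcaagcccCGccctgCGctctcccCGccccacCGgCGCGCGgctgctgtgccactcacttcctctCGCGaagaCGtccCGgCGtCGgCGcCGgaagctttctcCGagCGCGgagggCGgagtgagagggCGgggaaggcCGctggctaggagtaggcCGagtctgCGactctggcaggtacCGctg
Prss53: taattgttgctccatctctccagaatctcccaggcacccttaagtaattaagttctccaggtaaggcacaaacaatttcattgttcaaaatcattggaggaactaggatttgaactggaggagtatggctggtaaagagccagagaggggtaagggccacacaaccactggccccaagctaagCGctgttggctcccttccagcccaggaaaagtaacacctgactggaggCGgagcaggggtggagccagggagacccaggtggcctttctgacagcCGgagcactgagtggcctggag

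Prl7d1 (chr13:27716687-27716986, minus strand) had higher H3K27me2 in both defeat groups, and Olfr1040 (chr2:86146683-86146982, minus strand) lower H3K27me2 in resilient mice. Both promoters hold few CpG:
Prl7d1: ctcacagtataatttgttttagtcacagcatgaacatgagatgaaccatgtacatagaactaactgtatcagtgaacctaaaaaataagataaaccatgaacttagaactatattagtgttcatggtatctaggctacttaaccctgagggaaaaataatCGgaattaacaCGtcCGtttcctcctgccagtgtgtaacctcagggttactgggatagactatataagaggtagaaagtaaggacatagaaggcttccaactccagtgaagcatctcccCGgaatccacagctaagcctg
Olfr1040: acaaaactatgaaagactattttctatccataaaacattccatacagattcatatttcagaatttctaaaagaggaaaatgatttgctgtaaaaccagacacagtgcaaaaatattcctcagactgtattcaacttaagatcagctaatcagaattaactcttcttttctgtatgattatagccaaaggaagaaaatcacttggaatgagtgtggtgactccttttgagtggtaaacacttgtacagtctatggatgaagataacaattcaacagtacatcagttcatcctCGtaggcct

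Nktr (chr9:121718931-121719230, plus strand), Lrrc3b (chr14:15438938-15439237, minus strand) and Ppbp (chr5:90768268-90768567, plus strand) had higher H3K27me1 after ELS and subthreshold defeat, and range from many CpG to few:
Nktr: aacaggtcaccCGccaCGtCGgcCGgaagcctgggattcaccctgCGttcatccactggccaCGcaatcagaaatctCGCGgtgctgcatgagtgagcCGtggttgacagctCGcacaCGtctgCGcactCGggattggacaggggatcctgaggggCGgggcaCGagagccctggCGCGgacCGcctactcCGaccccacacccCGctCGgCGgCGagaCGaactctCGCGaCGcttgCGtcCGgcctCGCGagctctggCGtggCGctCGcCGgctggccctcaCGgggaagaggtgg
Lrrc3b: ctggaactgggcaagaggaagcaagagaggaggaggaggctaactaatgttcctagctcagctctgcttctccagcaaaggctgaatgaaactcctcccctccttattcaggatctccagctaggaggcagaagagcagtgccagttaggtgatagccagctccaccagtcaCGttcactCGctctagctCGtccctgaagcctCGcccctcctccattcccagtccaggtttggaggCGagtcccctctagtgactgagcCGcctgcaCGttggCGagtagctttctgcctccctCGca
Ppbp: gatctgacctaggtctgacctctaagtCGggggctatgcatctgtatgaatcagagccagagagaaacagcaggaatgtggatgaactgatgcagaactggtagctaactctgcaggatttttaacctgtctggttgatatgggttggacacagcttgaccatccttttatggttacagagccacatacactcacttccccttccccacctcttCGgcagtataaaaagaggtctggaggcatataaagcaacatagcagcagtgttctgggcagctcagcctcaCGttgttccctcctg

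The printed promoters hold from 1 CpG (Olfr1040) to 36 (Nktr), against a median of 16 (quartiles 5 and 26) over the 13566 genes matched to RefSeq. Hibch holds 20 CpG, Alkbh3 18, Anapc4 34, Lrrc3b 9, Pspn 5, Prl7d1 4, Prss53 3 and Ppbp 3. Short motifs were searched on both strands: the TATA box TATAAA, which 11.2% of all matched promoters hold, CCAAT (38.4%), the GC box GGGCGG (52.4%), the ETS motif CCGGAAG (13.6%) and the cyclic AMP response element TGACGTCA (2.7%). None of these motifs contains another of them. Nktr held CCAAT, the GC box and the ETS motif, Anapc4 the GC box and the ETS motif, Hibch the GC box, Alkbh3 the ETS motif, Prss53 CCAAT, and Ppbp the TATA box. A match is only a match of letters, and the absence of one says only that those letters are not in the window. The printed sequence lay within the called site over all 300 bases at Hibch (susceptible table), Alkbh3, Prss53 (resilient table), Prl7d1 (susceptible table), Anapc4 (resilient table), Nktr and Ppbp.

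Among the called sites at transcription starts, H3K27me1 was mostly lower in susceptible mice and mostly higher after ELS with subthreshold defeat. Few starts had such a site: 0.514% of gene starts had a lower one in susceptible mice and 1.07% a higher one after ELS. The susceptible mice's table held 108 start sites, 15 higher and 93 lower than control, which is 13.9% higher (95% exact interval 7.99 to 21.9), whereas 50.3% of its 12124 autosomal sites were higher and 49.7% lower. The resilient H3K27me1 table held 65 start sites, 29 higher and 36 lower, or 44.6% higher (32.3 to 57.5), beside 51.6% higher and 48.4% lower among its 7011 autosomal sites. The ELS table held 243 start sites, 196 higher and 47 lower, or 80.7% higher (75.1 to 85.4), beside 69.1% higher and 30.9% lower among 9365. For H3K27me2, the susceptible table held 16 start sites, 9 higher and 7 lower (56.2% higher, 29.9 to 80.2, beside 69.4% higher and 30.6% lower among 2075). The resilient H3K27me2 table held 48, of which 23 were higher and 25 lower (47.9% higher, 33.3 to 62.8, beside 79.5% higher and 20.5% lower among 4654). The intervals cover counting error over sites only, and sites of the same libraries are not independent.

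**Figure D1:**
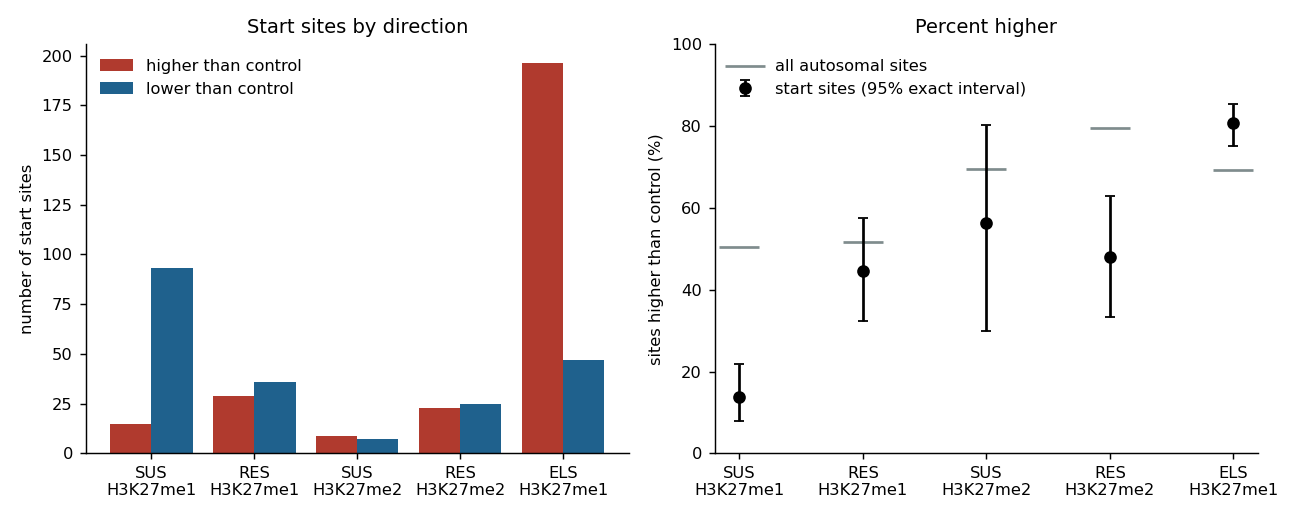
Start sites per table. Left, bars give the number of start sites higher and lower than control, and 93 of the 108 susceptible H3K27me1 sites are lower while 196 of the 243 ELS sites are higher. Right, points give the percent of start sites that are higher with the 95% exact interval, and grey dashes the percent over all autosomal sites of that table.

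Seen from the other side, the share of sites that lay at a start differed between directions in 3 tables, with intervals that did not overlap. These intervals, too, cover counting error only and treat sites of the same libraries as independent, which they are not. For susceptible H3K27me1, 1.54% of lower sites (95% exact interval 1.25 to 1.89) but 0.246% of higher sites (0.138 to 0.405) were at a start. In the resilient H3K27me2 table the shares were 2.62% of lower (1.7 to 3.85) and 0.621% of higher sites (0.394 to 0.931). The ELS table had the opposite order, with 3.03% of higher (2.62 to 3.48) and 1.62% of lower sites (1.2 to 2.15). In the resilient H3K27me1 table the shares were 0.802% and 1.06% for higher and lower sites, and 0.625% and 1.1% for susceptible H3K27me2, with intervals that overlapped widely. Per gene, 0.514% of all 20807 gene starts had a lower and 0.0673% a higher site in the susceptible H3K27me1 table, against 0.245% and 1.07% in the ELS table. The lower and higher shares were 0.216% and 0.139% for resilient H3K27me1, 0.0769% and 0.0433% for susceptible H3K27me2, and 0.173% and 0.111% for resilient H3K27me2. In each defeat table the lower share counts all 9 predicted genes of a single site, a repeat block described below. By sites, the susceptible H3K27me2 table had 9 higher and 7 lower, the opposite order to its shares per gene.

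Directions also changed with distance from the start, and the susceptible H3K27me1 shift was not limited to the start window. There 21.4% of the 28 sites that cover a gene start were higher, 6.67% of the 30 other sites up to 500 bp away, 14% of the 50 sites from there to 1000 bp, 19.7% of the 152 sites from there to 2000 bp, 20.8% of 780 sites up to 5000 bp and 26.3% of 3317 up to 20000 bp. Beyond 20000 bp, 64.6% of 7767 sites were higher. The predominance of lower sites thus extended over the gene-near sequence as a whole. In the ELS table the share of higher sites was instead highest on the start itself, at 90.9% of 110 sites (95% exact interval 83.9 to 95.6). It was then 78.8% of 66 up to 500 bp, 65.7% of 67 up to 1000 bp and 60.7% of 117 up to 2000 bp. Beyond 20000 bp it was 69.1% of 7368. At the 110 sites on a start, the median enrichment over IgG was 0.665 in stressed and 0.375 in control libraries, both below 1. For resilient H3K27me2, 15% of the 20 sites covering a start were higher, 77.8% of only 9 sites up to 500 bp away and 68.4% of 19 sites from there to 1000 bp. Farther out the share was 26.1% of 23 sites up to 2000 bp, 57.6% of 59 up to 5000 bp, 51.2% of 172 up to 20000 bp and 81.6% of 4352 beyond, so mostly lower sites were not limited to those on the start. The resilient H3K27me1 shares were 36.8% of 19, 58.8% of 17 and 41.4% of 29 sites in those first classes and 58% of 4531 beyond 20000 bp. At the edge of the window, the susceptible H3K27me1 table had 12 sites in the last 100 bp before the edge, 1 of them higher, and 6 sites in the first 100 bp beyond it, none of them higher. The ELS table had 13 sites just inside, 9 of them higher, and 6 just outside, 3 of them higher.

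**Figure D2:**
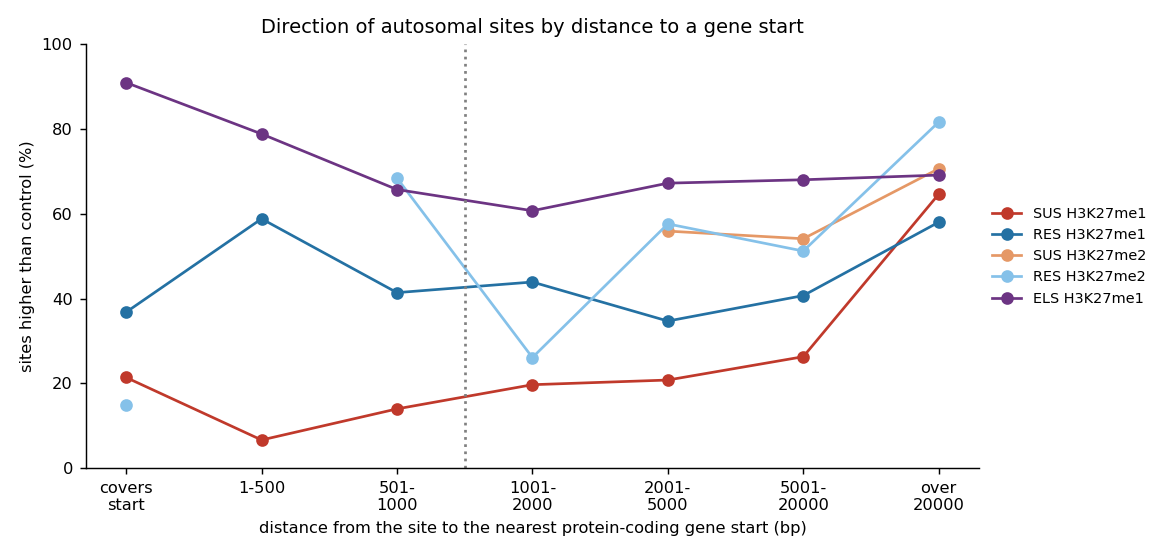
Percent of autosomal sites that are higher than control (vertical axis) by distance from the site to the nearest protein-coding gene start (horizontal axis, classes in bp), 1 line per table. The dotted line marks the edge of the start window, and classes of fewer than 15 sites are not drawn. The ELS line falls from 90.9% on the start to 60.7% between 1000 and 2000 bp, and the susceptible H3K27me1 line is at most 26.3% up to 20000 bp.

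The position of the start sites differed among the groups of sites. Of the 93 lower sites in the susceptible H3K27me1 table, 22 covered a gene start, 47 lay wholly upstream of it and 24 downstream, and 36 lay in the body of another gene. Of the 196 higher sites after ELS, 100 covered a start, 45 lay upstream and 51 downstream, and 29 touched the start windows of at least 2 genes. The higher H3K27me2 sites of resilient mice lay mostly inside the gene (14 of 23 downstream of the start, 3 covering it), while 17 of the 25 lower sites covered the start. Sites were short, with medians of 1000 to 1450 bp per table, except for a repeat block described below.

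Depth and background set limits on these values. Per the headers, the defeat cohort's H3K27me1 libraries had 20.57 to 30.39 reads in a bin of 1000 bp. Those for H3K27me2 had 10.56 to 40.63, with control library 52 the shallowest, and those of the ELS cohort 5.0 to 7.78. The authors' enrichment over IgG, the antibody background, was below 1 in both groups at 154 of the 243 ELS start sites (63.4%), against 23.6% of all autosomal sites of that table. At start sites of the other tables it was below 1 in both groups at 5 of 108 (4.63%, against 0.33% of all), 4 of 65 (6.15%, 0.399%), 5 of 16 (31.2%, 3.28%) and 5 of 48 (10.4%, 1.87%), in the order susceptible and resilient H3K27me1, then susceptible and resilient H3K27me2. Among susceptible H3K27me1 start sites with an enrichment above 1, 11.8% of 102 were higher, within the interval of 7.99 to 21.9 for all 108. After ELS, 71.9% of 89 such sites were higher, below the interval of 75.1 to 85.4 for all 243. At any enrichment, 69.1% of all autosomal ELS sites were higher. The part of IgG background in the directions was not tested.

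Groups were apart, with every stressed library on the same side of every control library, at 56 of 108 susceptible H3K27me1 start sites (51.9%, against 52.8% of all autosomal sites of the table). That count was 36 of 65 (55.4%, against 54.7%) in the resilient H3K27me1 table, 6 of 16 (37.5%, 57%) and 19 of 48 (39.6%, 58.6%) in the susceptible and resilient H3K27me2 tables, and 238 of 243 (97.9%, 98.8%) in the ELS table. These shares follow from the choice of sites by the authors on the same libraries. With each library as a replicate, limma's unadjusted p was under 0.05 at 102, 61, 10, 35 and 238 start sites in the order susceptible and resilient H3K27me1, susceptible and resilient H3K27me2, and ELS (98.9%, 99.7%, 93.8%, 95.8% and 98.9% of all autosomal sites). Adjusted over all windows of a table, limma called 0 start sites in each of the 4 defeat tables (0.0% of all their autosomal sites), and 228 of 243 in the ELS table (95.6% of all). The defeat tables rest on a G-test that pools the reads of a group. In the ELS table the authors' adjusted p was above 0.05 at 16 of the 243 start sites.

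To see which starts differed in susceptible mice, the lower H3K27me1 sites were read gene by gene, beginning with genes of mitochondria and translation. Of 169 genes of mitochondrial respiration and import, 1 had a start site in this comparison (0.592%, against 0.577% of all genes). That list does not hold every mitochondrial gene, and Pnpt1, described below, is not on it. Of 273 ribosome and translation genes, 3 had one (1.1%), of which 2 were lower and Dars was higher. Mrpl21, a protein of the large mitochondrial ribosomal subunit, and Ighmbp2, a helicase, share a site at chr19:3283601-3285600. It held 172, 146, 155 and 145 normalised reads in the susceptible libraries and 195, 203, 204 and 239 in the controls. All 4 susceptible libraries lay below all 4 controls. The log2 difference was -0.44 ± 0.12 (SE, limma, unadjusted p = 0.000968), and the authors' deposited adjusted p was 3.55e-06. Mrps26, of the small mitochondrial subunit, held 128, 95.7, 98.01 and 127 against 159.99, 158, 166 and 151 reads upstream of its start (chr2:130561201-130563000). These groups did not overlap either, and the difference was -0.51 ± 0.14 (SE, limma, unadjusted p = 0.000594). At the site shared by Cebpz, a transcription factor, and Ndufaf7, an assembly factor of respiratory complex I, the means were 63.9 ± 9.05 and 94.2 ± 12.5 reads (SD, n = 4 each), a log2 difference of -0.55 ± 0.16 (SE, limma, unadjusted p = 0.00119).

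Other lower starts belonged to secreted and signalling proteins. The site over the start of Pspn, which encodes the neurotrophic factor persephin, lay beside Alkbh7, a mitochondrial dioxygenase (chr17:56998301-57000200). It held 116, 127, 146 and 154 reads in susceptible and 207, 164, 188 and 192 in control libraries, with no overlap, and a log2 difference of -0.47 ± 0.13 (SE, limma, unadjusted p = 0.000964). Of the printed Pspn promoter, 145 of 300 bases fell in that site. At Ecm1, which encodes an extracellular matrix protein, reads were 168, 185, 255 and 239 against 257, 273, 309 and 258. The highest susceptible library there, at 255 reads, came close to the lowest control, at 257. Gigyf1, a partner of the translational repressor 4EHP, held 107 ± 19.2 against 151 ± 8.03 reads, a log2 difference of -0.51 ± 0.14 (SE, limma, unadjusted p = 0.000866). Gdpd3, a lysophospholipase D, held 190.1 ± 38.1 against 242 ± 23.4, and its groups overlapped.

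Vesicle traffic and transcription regulators were also among them. Of 290 vesicle and autophagy genes, 2 had a start site (0.69%, against 0.577% of all genes), and of 214 developmental transcription factors 1 (0.467%). Vps4a, the ATPase that disassembles ESCRT-III on membranes, held 43.5, 44.2, 64.1 and 55.6 reads in susceptible and 91.95, 67.98, 69.3 and 79 in control libraries. No susceptible library reached the lowest control, and the log2 difference was -0.57 ± 0.17 (SE, limma, unadjusted p = 0.00153). Exoc3, a subunit of the exocyst, held 60.7 ± 7.21 against 84.1 ± 16 reads (SD, n = 4 each) with groups apart. Sox15, a transcription factor, had a deposited log2 change of -0.61, from 71.5 ± 5.82 in control to 46.7 ± 14.1 reads in susceptible libraries. Susceptible library 29 was lowest there, at 27.1 reads. Of 421 zinc-finger genes, 3 had a susceptible start site (0.713%, against 0.577% of all genes) and all 3 were lower, in a table where 93 of 108 start sites were: Zfp386 at -0.55, Zfp61 at -0.46 and Zfp979 at -0.25 on the log2 scale of the authors' deposited table.

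Over the 93 lower sites the deposited log2 change ran from -0.61 to -0.04 with a median of -0.45, against a median of -0.43 over all lower autosomal sites. Over the 15 higher sites the change ran from 0.02 to 0.61 with a median of 0.45.

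The few higher starts in susceptible mice included genes of RNA metabolism and of amino acid breakdown. Pnpt1, the mitochondrial polynucleotide phosphorylase, held 73.1, 71.3, 78.7 and 76.6 reads in susceptible and 37.7, 46.1, 44.8 and 68.3 in control libraries just inside its start (chr11:29130901-29131900). The lowest susceptible library, at 71.3, lay above the highest control, at 68.3. The log2 difference of 0.63 ± 0.17 (SE, limma, unadjusted p = 0.000673) belongs to the site with the largest deposited change (0.61) of the 15 higher start sites. Dars, the cytoplasmic aspartyl-tRNA synthetase, held 148 ± 11.7 against 108 ± 16.4 reads, and Med28, a Mediator subunit, 138 ± 12.5 against 103 ± 10, with groups apart at both. Zpld1, a zona pellucida domain protein, held 82.4 ± 14.2 against 55.1 ± 6.71, and Adam4, a testis metalloprotease, 105 ± 8.2 against 75.3 ± 7.87 over its start, with a further higher site upstream. Tmx3, a thioredoxin-like protein of the endoplasmic reticulum, held 82.03 ± 10.9 against 57.7 ± 8.82 with groups apart, and Sh2d6, an SH2 domain protein, 109 ± 21.1 against 80.6 ± 15.7 with groups that overlapped. At P2ry14, a receptor for UDP-glucose, the means were 89.2 ± 12 and 63.2 ± 15.9. There susceptible library 32, at 71.4 reads, fell among the controls.

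In resilient mice, the lower H3K27me1 starts included Cct4 in protein folding, Clp1 in RNA processing, and Polr2d and Gtf3c3 in transcription. The last 2 were the members of 141 basal transcription and Mediator genes with a start site there (1.42%, against 0.356% of all genes). Cct4, a subunit of the cytosolic chaperonin, held 40.9, 45.5, 65.7 and 66.5 reads in resilient and 75.4, 80.6, 85.05 and 104 in control libraries upstream of its start (chr11:22988701-22989800). No resilient library reached the lowest control, and the log2 difference was -0.67 ± 0.17 (SE, limma, unadjusted p = 0.00017). Clp1, an RNA kinase of tRNA splicing and messenger RNA 3′ end formation, held 59.6, 77.6, 44.1 and 62.6 against 85.8, 101, 81.8 and 106 reads. Its groups were apart too, with a difference of -0.63 ± 0.16 (SE, limma, unadjusted p = 0.000314). Ltn1, the ubiquitin ligase of stalled ribosomes, held 255 ± 30.2 against 319 ± 20.9 reads, Polr2d, a subunit of RNA polymerase II, 63.5 ± 8.86 against 90.1 ± 5.82, and Gtf3c3, a subunit of the RNA polymerase III factor TFIIIC, 77.6 ± 18.1 against 105 ± 4.18 (SD, n = 4 each). They were apart at Ltn1 and Polr2d and overlapped at Gtf3c3, where resilient library 36 held 102 reads. Lat2, an adaptor of immune receptors, held 79.2, 54.3, 78.4 and 54.9 reads against 99.01, 90.1, 104 and 85.4 over its start, with groups apart. Ulk3, a kinase of autophagy and hedgehog signalling, Slc25a1, the mitochondrial citrate carrier, and Mrps11, of the mitochondrial ribosome, were lower at -0.49, -0.43 and -0.46, each with overlapping groups. Kcnj13, an inward rectifier potassium channel, was the 1 of 264 ion channel and receptor genes with a start site in this table (0.379%, against 0.356% of all genes), at 78.7 ± 11.6 against 105 ± 13.4 reads.

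The 29 higher starts in resilient mice included genes of nucleic acid repair, purine synthesis and pheromone reception. Alkbh3, a demethylase that repairs alkylated DNA and RNA, held 127, 121, 147 and 131 reads in resilient and 87.7, 67.6, 101 and 105 in control libraries over its start (chr2:94009801-94011300). All resilient libraries were above all controls, with a log2 difference of 0.55 ± 0.15 (SE, limma, unadjusted p = 0.000402) and an enrichment over IgG of 1.2 against 0.72. Atic, which closes purine synthesis, held 87.7, 95.3, 99.96 and 127 against 63.2, 77.04, 67.6 and 78.1 reads. Resilient library 36 was the highest, and the groups did not overlap. Dok7, an activator of the muscle kinase MuSK, held 135 ± 5.64 against 101 ± 11.1, and Tmem130, a transmembrane protein, 128 ± 12 against 94.5 ± 6.01, both with groups apart. The vomeronasal receptor genes Vmn1r127, Vmn1r130 and Vmn1r158 were all higher, at deposited log2 changes of 0.44, 0.48 and 0.39. They were the 3 of 1517 chemosensory receptor genes with a start site there (0.198%, below the 0.356% of all genes). Only Vmn1r127 had groups apart. Of 421 zinc-finger genes, 6 had a resilient H3K27me1 start site (1.43%, against 0.356% of all genes), 4 higher (Zfp930, Zfp958, Zfp979 and Zfp986) and 2 lower (Zfp473 and Zfp65).

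**Figure D3:**
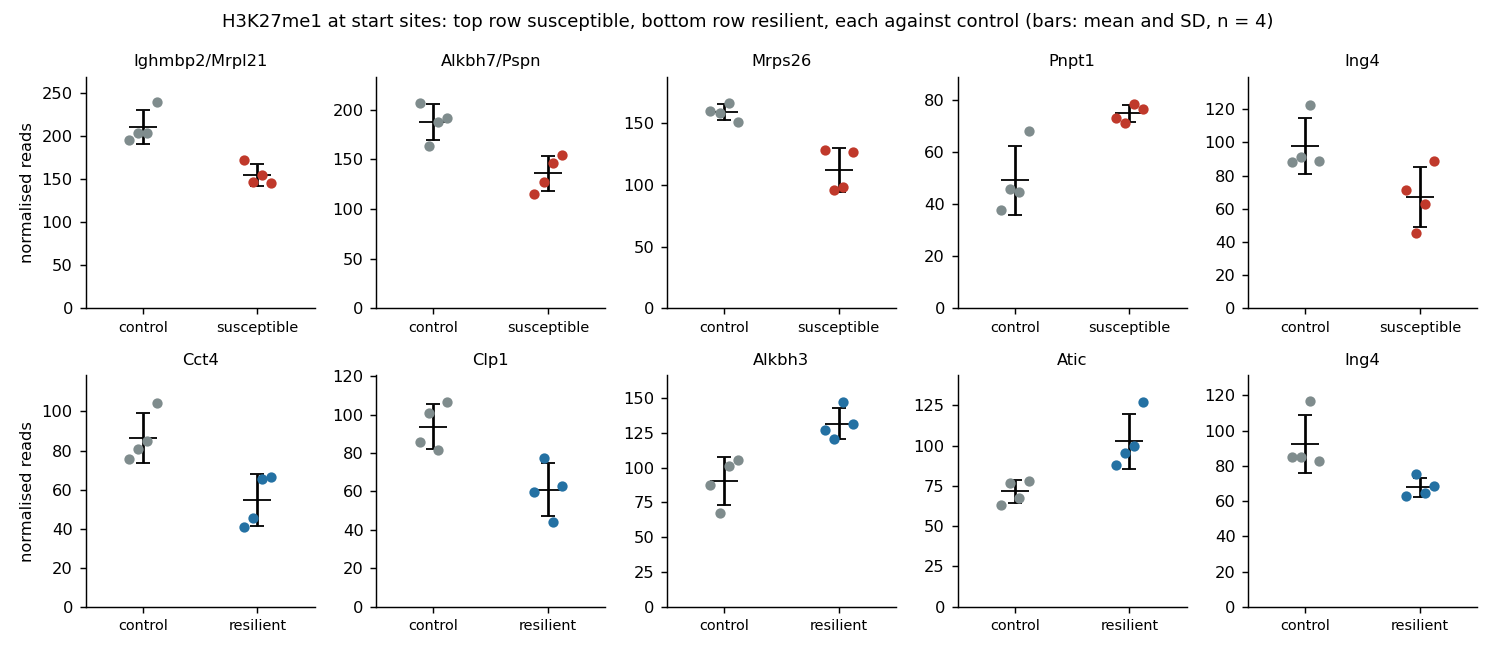
H3K27me1 in normalised reads (vertical axes, from 0) at 10 start sites of the defeat cohort. Points are libraries, the long dash is the mean and the bar the SD over 4 libraries; top panels compare susceptible and bottom panels resilient with control libraries. At Ing4 control library 31 stands above the other controls, at 123 reads in the susceptible and 117 in the resilient table.

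Genes with a start site in both the susceptible and the resilient H3K27me1 table can only be set side by side, since the controls are the same libraries. At Ing4, which encodes a chromatin reader of histone H3 lysine 4 methylation, susceptible libraries held 71.1, 45.1, 62.9 and 88.5 and resilient libraries 63, 75.4, 64.7 and 68.4 normalised reads, against 88.3, 91.02, 123 and 88.8 and 84.9, 85.3, 117 and 82.7 in the controls of the 2 tables. Susceptible library 35, at 88.5 reads, lay among the controls, and control library 31 stood above them in both tables. At Cct4 the susceptible mean was 61.1 ± 10.4 against 84.3 ± 12.5, with overlapping groups. At Anapc4, a subunit of the anaphase-promoting complex, the means were 72.8 ± 7.55 against 100.1 ± 19.1 in the susceptible table and 100.3 ± 4.45 against 139 ± 24.9 in the resilient table, where the site covers the printed promoter. Its groups overlapped in the susceptible table and were apart in the resilient table, at an enrichment over IgG of only 0.47 against 0.66. Adat1, which deaminates adenosine in tRNA, Desi1, a SUMO isopeptidase, Nme7, of the nucleoside diphosphate kinase family, Ccdc33, and the secretoglobin gene Scgb1b18 were also lower in both tables. At Desi1 the controls ran from 99.1 to 203 reads in the susceptible table, so their SD of 48.3 exceeded the difference of the means (98.5 against 134). Dnd1, an RNA-binding protein of germ cells, was lower at -0.46 and -0.41 log2, at neighbouring sites on either side of its start. Kif28, a kinesin, was higher at 0.49 and 0.42, with groups apart in both tables.

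At Prss53, a serine protease gene, the directions differed. Its susceptible site lies just inside the gene (chr7:127889701-127890800) and held 88.9, 86.7, 89.5 and 104 reads against 118, 131, 119 and 109 in controls. Its resilient site covers the start (chr7:127890701-127891700) and held 103, 98.7, 133 and 123 against 94.3, 66.4, 87.2 and 92.7. The groups were apart in both tables, but the sites share only their overlapping ends, so they measure neighbouring sequence. Zfp979 was lower in the susceptible table (-0.25), higher in the resilient table (0.21) and slightly lower in the ELS table (-0.08), at 3 different sites whose groups overlapped in each table.

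H3K27me2 start sites were few, and several of the higher ones lay at genes best known from other tissues. Prl7d1, a prolactin-family gene of the placenta, held 126, 131, 108 and 124 reads in susceptible and 104, 71.9, 99.2 and 82.8 in control libraries over its start (chr13:27716601-27717800). These groups were apart, with a log2 difference of 0.46 ± 0.16 (SE, limma, unadjusted p = 0.0104). In resilient mice its site held 122, 117, 120.04 and 85.5 reads against 94.02, 72.5, 87.8 and 72.9 in the same control libraries. Resilient library 60 there, at 85.5 reads, fell among the controls. Slco1a1, an organic anion transporter of liver and kidney, held 144 ± 11 against 105 ± 35.2 reads in the susceptible and 129 ± 14.8 against 91.7 ± 26.9 in the resilient table. Control library 49, at 153 and 127 reads, overlapped the stressed groups at both. The pheromone receptor gene Vmn1r30 held 117 ± 16.6 against 83.9 ± 17.5 in susceptible and 108 ± 11.4 against 78.6 ± 11.2 in resilient mice, apart from controls in both. Control library 52, the shallowest, was the lowest control at Prl7d1, Vmn1r30 and Slco1a1 in both tables.

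In susceptible mice the olfactory receptor genes Olfr1037 and Olfr1032 were also higher. Olfr1037 held 120.4, 128, 97.9 and 107 against 76.6, 62, 82.7 and 96.2 reads, with groups apart, and Olfr1032 85.7 ± 15.5 against 59.2 ± 15. At Olfr1037 the lowest control, at 62 reads, was again library 52. The lower start of Coil, which encodes the Cajal body protein coilin, held 75.5 ± 14.1 against 103 ± 24.7 reads at an enrichment of 0.3 against 0.5, below the IgG background in both groups.

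The higher H3K27me2 starts in resilient mice included genes of secreted and barrier proteins. Hsd3b3, a steroid dehydrogenase, held 208, 242, 208 and 219 reads against 166, 116, 159 and 178 (chr3:98759801-98762300). The groups were apart, with a difference of 0.51 ± 0.16 (SE, limma, unadjusted p = 0.00515). Library 52 was the lowest control there, at 116 reads, whereas at Trim52 below it was not. Chil4, a chitinase-like protein, held 226 ± 28.7 against 167 ± 37.5 reads, Csn3, the milk protein kappa casein, 104 ± 9.86 against 70.6 ± 19.4, and Smr2, of the submaxillary gland, 88.01 ± 4.91 against 61.8 ± 23.9 (SD, n = 4 each). At these 3 genes the groups overlapped through control library 49. Trim52 held 73.6, 73.7, 77.8 and 76.6 against 60.8, 45.9, 41.5 and 54.3 reads, and Olfr1251 94.99 ± 4.33 against 66.9 ± 9.52, both with groups apart. Cylc2, a protein of the sperm head, held 97.2 ± 13.8 against 68.9 ± 8.54, apart as well. At the start windows of Sprr2a1 and Sprr2a2, small proline-rich proteins of the skin envelope, reads were 448 ± 11.3 against 384 ± 41.6. These 2 genes are close copies, so the authors' counting may split their reads, and limma gave an unadjusted p of 0.157. The major urinary protein gene Mup5, of another family of close copies, had a higher site inside the gene (0.51 log2) and a lower site upstream (-0.44).

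The lower H3K27me2 starts in resilient mice included nuclear body and receptor genes. The start shared by Sp110 and Sp140, nuclear body proteins of immune cells, held 313, 309, 357 and 255 reads against 351, 316, 460.3 and 436. Control library 52, at 316 reads, fell within the resilient range, and limma gave an unadjusted p of 0.0673. Sp140 was lower for H3K27me1 in susceptible mice too, at 204 ± 22.7 against 252 ± 12.3 reads with groups apart. Olfr1040, whose CpG-poor promoter is printed above, held 49.4, 47.8, 67.2 and 69.98 against 74.2, 82.1, 86.8 and 88.4 reads, and Vmn1r33 65.1 ± 14.9 against 93.7 ± 6.46, both with groups apart. Olfr1019 held 61.5 ± 12.4 against 87.3 ± 11.1, and the zinc-finger gene Zfp978 117 ± 18.9 against 161 ± 32.7, with overlap at both. Hjurp, the loading chaperone of centromeric histone CENP-A, shares its site with Trpm8, the cold-sensing channel. That site held 92.4 ± 17.8 against 124 ± 35.7 reads at an enrichment of 0.24 against 0.31, and the groups overlapped.

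Some start sites lay at predicted genes in repeated sequence with read numbers far above the other sites, and reads shared between copies make them uncertain. A block of 40100 bp at chr9:2999101-3039200 with 9 predicted genes, among them Gm10722 and Gm10715, held 380635 ± 40900 reads in susceptible and 411005 ± 32200 in control libraries, a log2 difference of -0.11 ± 0.24 (SE, limma, unadjusted p = 0.636). The block was deposited as lower in all 4 defeat tables (-0.11 in both for H3K27me1, -0.18 and -0.14 in the susceptible and resilient tables for H3K27me2), with an enrichment over IgG below 1 in each. Gm21738, another predicted gene, held 90323 ± 8850 against 92911 ± 7840 reads in the susceptible H3K27me1 table, a difference smaller than the spread between libraries. Duxf3, a double homeobox gene present in many copies, had a start site in all 5 tables. Without sites above 1000 normalised reads, 102 susceptible H3K27me1 start sites remained, 12.7% of them higher, and 42 resilient H3K27me2 start sites, 54.8% of them higher.

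After ELS and subthreshold defeat, called sites of higher H3K27me1 lay at 1.07% of gene starts, over a broad range of genes. At 132 of the 196 higher start sites the enrichment over IgG was below 1 in both groups. Sla, which encodes a Src-like adaptor, held 28.7, 27.99 and 26.97 normalised reads in the stressed and 5.93, 9.72 and 12.2 in the standard control libraries (chr15:66831201-66832200). Every stressed library was more than 2 times the highest control, and the log2 difference was 1.54 ± 0.32 (SE, limma, unadjusted p = 3.46e-06). Nktr, a cyclophilin-related protein, held 45.9, 42.9 and 58.2 against 17.8, 18.5 and 27.9 reads over the CpG-rich promoter printed above. Lrrc3b, a leucine-rich repeat protein, held 53.9, 52.3 and 67.96 against 26.7, 22.4 and 34.9. The groups were apart at both, as at 98.8% of all autosomal ELS sites. The log2 differences were 1.18 ± 0.22 (SE, limma, unadjusted p = 1.26e-07) and 1.04 ± 0.20 (SE, limma, unadjusted p = 5.97e-07). Ppbp, a platelet chemokine with a TATA box in the printed promoter, held 32.1, 35.5 and 37.8 against 12.8, 13.6 and 16.6 reads.

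Signalling and channel genes were among the higher ELS starts. Mapk8ip1, a scaffold of the JNK kinase cascade, held 47.02, 32.7 and 33.4 reads in stressed and 3.95, 7.77 and 19.2 in control libraries. Its deposited log2 change of 1.87 was the highest of all 196 higher start sites, and control library 45, at 19.2 reads, lay above the other controls. Without that library the change was 2.69. Kcnh4, a voltage-gated potassium channel, held 49.8 ± 4.34 against 24.6 ± 5.93 reads (SD, n = 3 each), Kcna3, another, 32.95 ± 2.72 against 15.4 ± 6.75, and Htr5a, a serotonin receptor, 41.3 ± 2.21 against 22.6 ± 2.15. These are the 3 of 264 ion channel and receptor genes with an ELS start site (1.14%, against 1.31% of all genes). The groups were apart at all 3, as at 98.8% of all ELS sites. Ppp4c, a phosphatase catalytic subunit, held 53.4 ± 8.36 against 28.3 ± 2.22 reads. Of 334 kinase, phosphatase and cyclic nucleotide genes, 9 had an ELS start site (2.69%, against 1.31% of all genes), 5 higher and 4 lower.

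Genes of ribosomes, basal transcription and mitochondrial respiration were mostly higher, in a table where 80.7% of all start sites were. By list, 5 of 6, 3 of 3 and 4 of 6 genes were higher, too few to compare with that share. Rpl32, a ribosomal protein, held 49.3, 69.05 and 60.4 against 33.6, 23.3 and 38.4 reads over its start. Its groups were apart, as at 98.8% of all autosomal ELS sites, but its enrichment over IgG was 0.45 against 0.21. Of 273 ribosome and translation genes, 6 had an ELS start site (2.2%, against 1.31% of all genes), of which 5 were higher (Eif3g, Mrpl42, Rpl10l, Rpl32 and Rpl7) and Rpl21 was lower. Of 141 basal transcription and Mediator genes, 3 had one (2.13%), all higher. Gtf2f1, a subunit of TFIIF, held 76.5 ± 29.1 against 35 ± 9.7 reads, Pdss1, of coenzyme Q synthesis, 59.5 ± 10.2 against 29.1 ± 4.16, and Mepce, the capping enzyme of 7SK RNA, 40.6 ± 4.51 against 17 ± 6.03 at the start it shares with Zcwpw1. Hibch, an enzyme of valine breakdown, was higher in 2 cohorts that share no library. Its ELS site held 77.98, 87.7 and 85.2 reads against 56.3, 46.6 and 53.2, a log2 difference of 0.68 ± 0.17 (SE, limma, unadjusted p = 8.72e-05). Its susceptible site, shifted by 100 bp, held 85.9, 70.4, 89.5 and 82.1 against 54.2, 33.4, 75.7 and 64.8, where control library 31, at 75.7 reads, overlapped the susceptible range, for a difference of 0.57 ± 0.18 (SE, limma, unadjusted p = 0.00341). The enrichment was 0.71 against 0.37 in the ELS and 1 against 0.33 in the susceptible table, so the control level was below the IgG background in both.

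Further lists each gave a few ELS starts. Of 437 ubiquitin and proteasome genes, 6 had an ELS start site (1.37%, against 1.31% of all genes): Psma1, Psmc2, Trim26, Usp10 and Usp34 were higher and Rnf187 lower. Usp34, a deubiquitinase, held 42.4, 51.3 and 48.5 reads in stressed and 17.8, 27.2 and 29.6 in control libraries, and Usp10, another, 39.1 ± 5.41 against 18.7 ± 4.45. The groups were apart at both, as at 98.8% of all autosomal ELS sites, with enrichments over IgG of 0.3 against 0.17 and 0.41 against 0.22. RNA-binding proteins were represented by Ddx56, Rbm38 and Rbm45, 3 of 211 genes (1.42%, against 1.31% of all genes) and all higher, as 80.7% of all ELS start sites were. Rbm38 held 34.4, 34.5 and 60.4 against 17.8, 15.6 and 23.5 reads over its start, where stressed library 48 was the highest. Among vesicle and autophagy genes, 3 of 290 had a site (1.03%) and these were higher: Atg13, a subunit of the autophagy-initiating kinase complex, Snx33, a sorting nexin, and Vps9d1, which shares its site with the zinc-finger gene Zfp276. Atg13 held 51.6, 51.3 and 52.9 against 33.6, 21.4 and 32.3 reads.

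Of 1517 receptor genes for odours and pheromones, 8 had an ELS start site (0.527%, against 1.31% of all genes), 7 of them higher, beside 80.7% higher over all ELS start sites. Olfr1167 held 22.9, 27.99 and 29.1 reads in stressed and 3.95, 7.77 and 14.8 in control libraries, a deposited log2 change of 1.59 with an enrichment of 1.31 against 0.31. Vmn2r89 held 22.9, 26.1 and 28.1 against 11.9, 12.6 and 6.1, and Vmn1r206 41.7 ± 5.04 against 20.3 ± 4.19 reads (SD, n = 3 each). All stressed libraries were above all controls at these 3 genes, as at 98.8% of all ELS sites, and the level in stressed libraries was above the IgG background while that in controls was below it. Pcdhga11, a clustered protocadherin of neuronal surfaces, was the 1 member of 57 with a start site (1.75%), at 48.3 ± 3.02 against 26.3 ± 1.83 reads. Foxn3, a forkhead repressor, held 48.6 ± 4.39 against 23.4 ± 9.3, and Guca2b, the gut peptide uroguanylin, 63.05 ± 11.6 against 29.97 ± 3.85.

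The lower ELS starts showed changes of the same size. Fmo9, a flavin monooxygenase, held 6.88, 5.6 and 17.3 reads in stressed and 38.5, 29.2 and 31.4 in control libraries, a deposited log2 change of -1.74. Stressed library 48, at 17.3 reads, was the highest of its group, and without it the change was -2.4. Spam1, a sperm hyaluronidase, held 9.17, 11.2 and 7.55 against 26.7, 25.3 and 30.5, and Gpr85, an orphan receptor of brain, 30.96, 29.9 and 20.5 against 50.4, 64.1 and 67.1. All stressed libraries lay below all controls at these 3 genes, and groups were apart at 98.8% of all autosomal ELS sites. Mpp7, a scaffold protein of cell junctions, held 29.8, 35.5 and 40.99 reads against 66.2, 71.9 and 74.97, and its authors' deposited adjusted p of 0.000253 was the smallest of the lower starts named here. Sdhaf2, an assembly factor of succinate dehydrogenase, held 30.9 ± 4.61 against 57.5 ± 4.23, and Pde6h, a phosphodiesterase inhibitor subunit of cones, 12.5 ± 1.92 against 31.8 ± 7.88 at a site it shares with Erp27. Gadd45a, a protein of the DNA damage response, held 23.6 ± 5.82 against 47.4 ± 3.37 reads, Inha, the inhibin alpha subunit, 33.5 ± 4.8 against 61.9 ± 4.64, and Ankrd52, a subunit of a phosphatase complex, 37.1 ± 6.1 against 73.5 ± 8.96. Rhoa, the cytoskeletal GTPase, shares its start with Tcta, and the site held 21.8, 26.1 and 21.6 against 45.5, 40.8 and 65.4 reads with a log2 difference of -1.07 ± 0.21 (SE, limma, unadjusted p = 9.22e-07). Slc25a20, the mitochondrial carnitine carrier, and Uqcrh, of respiratory complex III, were lower at -0.89 and -0.95. Slc25a22, Slc25a25, Slc25a51 and Atp5s of the same list were higher. That makes 6 of 169 genes of mitochondrial respiration and import (3.55%, against 1.31% of all genes). The median deposited log2 change was 0.97 over the 196 higher and -0.98 over the 47 lower start sites, against 0.98 and -0.94 over all autosomal sites of those directions.

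**Figure D4:**
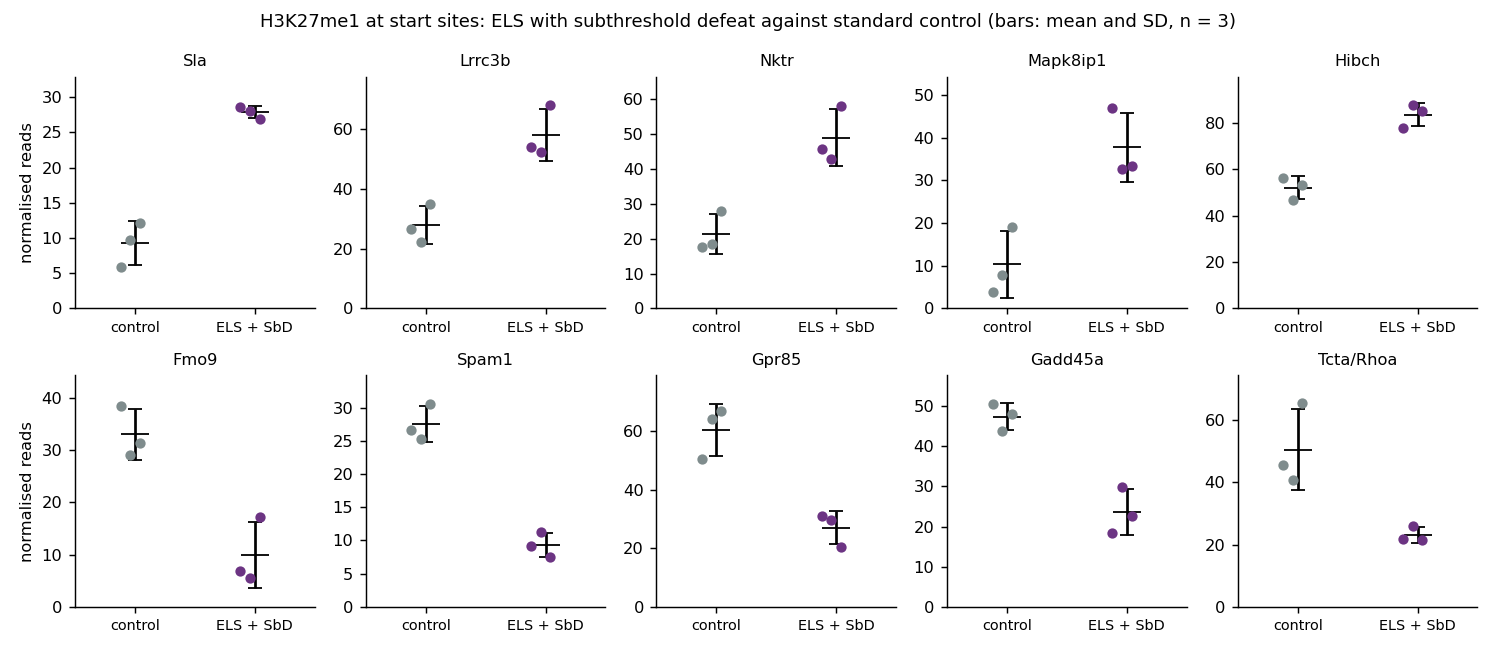
H3K27me1 in normalised reads (vertical axes, from 0) at 10 start sites of the ELS cohort, standard control against ELS with subthreshold defeat (ELS + SbD). Points are libraries, the long dash is the mean and the bar the SD over 3 libraries. The top panels are higher and the bottom panels lower. The groups do not overlap in any of the 10, as at 98.8% of all autosomal ELS sites.

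Gene lists gave few members in any table. Of 24 lists, 14 had at least 1 start site and 10 had none in any table: the markers of medium spiny neurons, astrocytes, oligodendrocytes, microglia, vessels, and cortical and interneurons, and the immediate early, histone, stress and neurotrophin, and synaptic adhesion and axon guidance genes (0 of 144 for the last). A mark at a start does not check the tissue, and with no start site at any marker the cell makeup of the libraries could not be read from these sites. In bulk tissue, a change of the mark within cells and a change in the share of cells that carry it cannot be told apart. Chemosensory receptors, 1517 genes in the annotation, had 1 start site gene in the susceptible and 3 in the resilient H3K27me1 table, 3 and 6 in the H3K27me2 tables, and 8 in the ELS table, of which 7 were higher. As shares of the list these were 0.0659%, 0.198%, 0.198%, 0.396% and 0.527%, beside 0.577%, 0.356%, 0.12%, 0.279% and 1.31% of all genes. In basal transcription and Mediator, Gtf2f1, Gtf2h1 and Ints13 were higher after ELS, though at Ints13 the authors' deposited adjusted p was 0.209, and Gtf3c3 and Polr2d were lower in resilient mice. Of 155 chromatin and Polycomb genes, 1 had a start site after ELS (0.645%, against 1.31% of all genes). None had one in the defeat tables, where 0.12% to 0.577% of all genes did. The ELS site was the higher one that Setd4 shares with Cbr1 (log2 0.67), and there the authors' deposited adjusted p was 0.0729.

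The starts also differed in base composition, a property the choice of sites did not use. Over the first 200 transcribed bases, the median CpG count was 10 for all protein-coding genes (quartiles 3 and 18) and the median GC content 58.5%. Genes with a higher ELS site had a median of 14 CpG (quartiles 6 and 21) and 60.5% GC, and those with a lower ELS site 7 CpG and 55%. In susceptible mice the genes with lower H3K27me1 had a median of 6 CpG and 55.5% GC and those with higher H3K27me1 7 CpG and 55.8%. In resilient mice these were 5 CpG and 51.5% for lower and 4 CpG and 54% for higher, so both directions lay below the median of all genes in the defeat cohort. Genes with higher H3K27me2 had the fewest, with medians of 1 CpG (42.5% GC) in susceptible and 2 CpG (48% GC) in resilient mice. Genes with lower H3K27me2 had 5 CpG and 3.5 CpG, a group that includes the repeat copies. These are medians over genes, given as descriptions. Where GC content bears on the reads recovered from a site, its part in the directions was not tested.

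**Figure D5:**
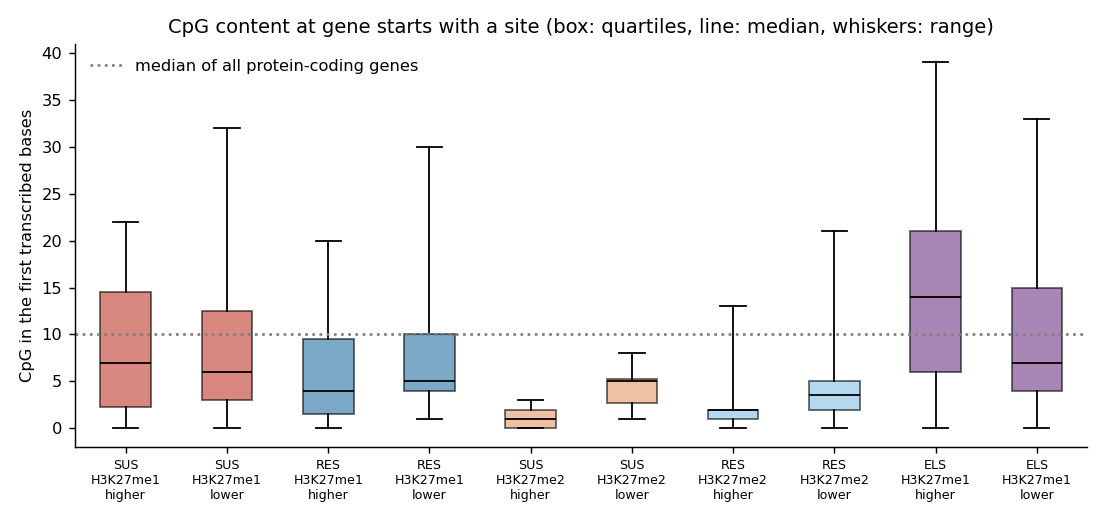
CpG dinucleotides in the first 200 transcribed bases (vertical axis) of genes with a start site, by table and direction. Boxes span the quartiles with the median as a line, whiskers span the range, and the dotted line is the median of 10 over all protein-coding genes; genes with higher ELS sites have a median of 14 and those with higher H3K27me2 medians of 1 and 2.

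Between tables that share no library, few genes recurred once repeat copies are set aside. The susceptible H3K27me1 and the ELS table had 4 genes in common, which is 3.33% of 120 and 1.47% of 273 genes. They were Hibch, higher in both, Duxf3 and Gm10800, which are repeat copies, and Zfp979, lower in both. The susceptible H3K27me1 and H3K27me2 tables shared 14 genes (11.7% of 120 and 56% of 25), which were the 9 predicted genes of the block, Gm21738, Gm10800, Gm10801, Duxf3 and Sfi1. The susceptible H3K27me1 and resilient H3K27me2 tables shared 17 (14.2% of 120 and 29.3% of 58), among them Sp140. The resilient H3K27me1 and ELS tables had 3 genes in common (4.05% of 74 and 1.1% of 273), which were Duxf3, Gm10800 and Zfp979.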

How the data were processed

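H3K27me1, H3K27me2 and IgG background were profiled by CUT&RUN in the nucleus accumbens of male wildtype mice. The labels list 72 samples, of which 30 mark libraries in 8 groups enter the 5 tables. Trim Galore 0.6.5, cutadapt 2.10, Bowtie2 2.4.1, SAMtools 1.10, MACS2 2.2.6 and diffReps 1.55.4 with mm10 are named in the submitters' processing notes. Per the file headers, the authors compared 1000-bp windows moved by 100 bp, kept those with p at most 0.0001 and merged them. The headers name a G-test for the 4 defeat tables and a negative binomial test for the ELS table. The deposited values are normalised reads per library and group mean (a signal), the ratio of each group to IgG as enrichment, a log2 fold change, and a p-value with its Benjamini-Hochberg adjustment over all windows, all by the authors and per the file headers. Window counts per library are in the headers.

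The members and gene lists were chosen with earlier results of these data known. Sites were matched to gene starts of GENCODE release M21 within 1000 bp, on autosomes only, since the mice are of 1 sex. limma 3.58.1 in R 4.3.3 tested log2(normalised reads + 1) across libraries, with all sites of a table in 1 fit of only the groups compared, so fold changes of low sites are understated. Its p-values were adjusted over the number of windows the authors tested. The fit was also run on simulated reads whose changes were larger than the median change in the defeat tables. There its p-values were adjusted over the listed sites only. That run therefore does not bear on the absence of adjusted calls in those tables. Sites entered the tables by a test on the same libraries, so p-values across libraries are not independent of that choice. Means are given with the SD over libraries. Named genes were taken from, in each table, the 10 higher and 10 lower start sites of smallest adjusted p (leaving out sites with only predicted genes or with means below 10 reads in both groups), every gene with a start site in at least 2 tables, and up to 4 start sites per table from each of 24 lists. Not all of these are described: most of those left out are uncharacterised or predicted genes, the others Wfikkn1, Triml2, Vmn1r94, Olfr133, Mapk4, Zfp641 and Zfp319. Other members of a list appear only where its count is given. Promoters and their 300 bases come from the RefSeq table (GRCm38.p6), in which 13566 of 20807 genes (65.2%) had an entry within 1000 bp of the gene start, so base composition was taken from the first 200 bases of GENCODE transcripts, which 99.6% of genes have. Alternatives covered the start window, the overlap, all transcripts' starts, thresholds, pseudocount, the median over libraries and each library left out. pandas 2.3.3, numpy 2.4.6, scipy 1.17.1 and matplotlib 3.10.9 under Python 3.11.15 were used. IgG libraries were not analysed here other than through the deposited enrichment.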

Additional observations from a re-analysis of the deposited data

Results flagged for a closer look

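Among the named start sites of the defeat cohort, 268 groups of 4 libraries were checked for a library far from the other 3, and 9 were found, where chance finds about 1 in 20. Control library 31 accounted for 4 of them. It held 122.67 normalised reads at Ing4 in the susceptible table, where the other controls held 88.27 to 91.02, and 116.67 in the resilient table, where they held 82.67 to 85.33. At Gm4141 the same library was low, at 94.93 against 128.73 to 133.65 in the susceptible and 82.87 against 113.56 to 118.81 in the resilient table. As both tables use the same control libraries, each pair is a single observation.

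Susceptible library 32 held 71.39 reads at P2ry14, where the others held 92.86 to 96.66, and 61740.71 at the repeat copy Gm10801, where the others held 51936.05 to 53446.93. Susceptible library 35 held 103.95 reads at Prss53, against 86.69 to 89.54. Resilient library 36 held 79.96 reads at Adat1, against 62.07 to 64.7. For H3K27me2, resilient library 60 held 85.53 reads at Prl7d1, against 116.55 to 122.02.

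Among 41 pairs of sites at the same gene in 2 tables, Prss53 had every susceptible library below and every resilient library above all controls, with log2 changes of -0.37 and 0.43. The sites overlap by 100 bp only, the controls are shared, and the difference was not tested.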

How the results depend on the processing

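Of the alternatives for the percent of start sites that were higher, 78 moved it by less than its counting interval. The ELS share was 86.4% with a window of 500 bp or an overlap of at least 500 bp, 74.2% with 2000 bp and 71.9% with an enrichment over IgG above 1. The susceptible H3K27me2 share was 81.8% with that enrichment. Counts of start sites moved with the window: 58 and 260 sites (500 and 2000 bp) for susceptible H3K27me1, 36 and 163 for resilient H3K27me1, and 29 at 500 bp for resilient H3K27me2. An overlap of at least 500 bp gave 58, 36 and 29 in those tables. Starts of all transcripts gave 415 and 226 sites for susceptible and resilient H3K27me1 and 27 for susceptible H3K27me2. Adjusted limma p-values left 0 start sites in each defeat table, and unadjusted ones left 10 of 16 for susceptible H3K27me2. After ELS, 106 sites had an authors' adjusted p under 0.01 and 89 an enrichment above 1.

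Each library was left out in turn, with the G-test repeated on the sites as deposited at a p limit of 0.0001. This gave 42 to 81 susceptible and 32 to 44 resilient H3K27me1 start sites. For H3K27me2 it gave 7 to 15 susceptible and 22 to 43 resilient start sites. These counts could only fall. Some deposited sites exceed that limit with all libraries (G3bp2, deposited G-test p of 0.00115), and no count with all libraries was run at it. The fall is thus not due to the missing library alone. The lowest counts came without susceptible library 29, control library 25, control library 52 and control library 55. The percent higher then ran from 12 to 14.8, 44.6 to 46.2, 56.2 to 62.5, 47.9 to 52.1 and, for ELS, 80.2 to 80.7. The negative binomial test of the ELS table was not repeated, so its counts without a library were not run. Leaving out sites above 1000 normalised reads, chosen after seeing the data, left 102, 62, 12, 42 and 243 sites with 12.7%, 46.8%, 75%, 54.8% and 80.7% higher.

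Of the values at named sites, 1993 of the alternatives kept the direction and moved it little, 8 moved it and 13 reversed it. The reversals were at Gm10801, Gm10800, Gm21738, Duxf3 and Sfi1, at sites with deposited log2 changes from -0.19 to 0.03, and the cause was not tested. With the median over libraries, Gm10801 and Gm10800 in the susceptible H3K27me1 table gave -0.03 each. With 1 library left out, Gm10801 ran from -0.03 (without susceptible 32 or control 25) to 0.08 and Gm10800 from -0.04 (susceptible 32) to 0.07, while Sfi1 ran from -0.15 to 0 (susceptible 29) and Gm21738 from -0.11 to 0.01 (control 31). The shared Gm10801 and Gm10800 site ran from -0.11 to 0 (resilient 27) for resilient H3K27me1, from -0.31 to 0.13 for susceptible and from -0.28 to 0.15 for resilient H3K27me2 (both control 52), Gm21738 from -0.26 to 0.02 (control 52) for the latter, and Duxf3 from -0.33 to 0.04 (control 55) for susceptible H3K27me2. With a pseudocount of 5, Sla gave 1.23, Ppbp 1.06, Htr5a 0.75, Pcdhga11 0.77 and Spam1 -1.19 in the ELS table.

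No paired analysis was possible because the groups share no library number. Low depth limits the ELS values, with at most 7.78 reads per 1000-bp bin, and H3K27me2 control library 52.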
